A study of Mus musculus with 14 samples.

Results

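mmu-miR-690, mmu-miR-706, mmu-miR-709 and mmu-miR-710 are 4 of the 584 mouse and rat miRNAs that were measured by real-time PCR in cells sorted from the mouse mammary gland. All 4 were assayed on plate B, the second of 2 array plates, which carried 209 of these miRNA assays against 375 on plate A. They were chosen for their late numbers in the miRNA nomenclature and selected on their measured levels, which differed widely between the 4 populations. Their levels are therefore described here and were not tested between populations.

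The cells came from adult FVB/N mice and were freshly isolated from pooled glands without any treatment. Stroma (CD29- CD24-) was represented by 4 libraries. The MaSC/basal fraction (CD29hi CD24+), which holds basal and myoepithelial cells beside stem cells, was represented by 4 libraries, mature luminal cells (ML, CD29lo CD24+ CD61-) by 3 and luminal progenitors (LP, CD29lo CD24+ CD61+) by 3. MaSC/basal, ML and LP libraries with the same number, from 1 to 3, shared a mouse pool. The library labelled MaSC-4 came from pool 4 and all 4 stromal libraries from pool 5, so that for stroma population and mouse pool cannot be told apart. In sorted bulk samples, fewer cells of a type and less RNA per cell also cannot be told apart.

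The raw value was the cycle threshold (Ct), the cycle at which fluorescence crosses a set level, and runs against the amount of RNA. An assay with no signal carries a Ct of 40 and is called undetected. The normalized value was a constant minus the Ct after cyclic loess between samples, on a log2 scale where 1 cycle is 1 unit. Stromal libraries had 287 to 292 detected miRNAs on plate A and 160 to 162 on plate B, against 256 to 279 and 81 to 87 in the 9 epithelial libraries MaSC/basal, ML and LP 1 to 3. The sort labels were checked with marker miRNAs, whose values were summed on the linear scale and returned to log2. The 8 epithelial markers of the miR-200 and miR-183 groups were all lower in stroma, with a summed level of 20.66 to 21.61 against 26.85 to 28.38 in epithelium. The 6 mesenchymal markers summed to 27.47 to 27.73 in stroma, against 28.32 to 29.44 in MaSC/basal cells, 22.75 to 23.38 in ML cells and 24.07 to 24.34 in LP cells. Of the 6, 5 were higher in stroma than in the mean of all epithelium. Against MaSC/basal cells alone, miR-143 (21.83 against 26.03) and miR-145 (26.23 against 28.60) were lower in stroma and the others higher. The sum thus did not set stroma above MaSC/basal cells. Blood cell markers (5 of 6 found) summed to 19.80 to 20.99 in stroma and 21.17 to 21.59 in epithelium, and the 2 miR-126 arms of endothelium to 23.03 to 23.88 and 23.24 to 24.78. The part of these cells in the values below was not tested. The library labelled MaSC-4 went against its label. The MaSC/basal markers miR-205, miR-204, miR-221 and miR-222 summed to 23.58 in it, against 27.16 to 27.78 in MaSC/basal 1 to 3, and the luminal markers miR-375, miR-148a and miR-203 to 23.16, against 19.63 to 20.18. This library was left out of the group values, and its own values are given beside them.

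A miRNA is cut from a hairpin precursor and, loaded on an Argonaute protein, lowers the stability and translation of mRNAs that pair with its seed, bases 2 to 8 of the mature strand. miRNAs with these numbers were first catalogued from mouse small RNA libraries. miR-690 is known in mice as a cargo of macrophage exosomes with insulin-sensitizing activity. miR-709 is known in mouse cells for its abundance in the nucleus, where it pairs with the primary transcript of miR-15a and miR-16-1 and hinders its processing.

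The mature sequences of 3 of the 4 miRNAs are shown because the seed is what would set their targets, and because the members are grouped by number and not by sequence. They are printed 5′ to 3′ from RefSeq (GRCm38.p6), with the seed in capitals.
miR-690: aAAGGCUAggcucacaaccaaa
miR-706: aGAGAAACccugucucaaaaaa
miR-710: cCAAGUCUuggggagaguugag
No 2 of these seeds were the same, and none occurred in another of the 1679 mature miRNAs of the table. Each sequence was 22 bases long, with 10 G or C bases in miR-690, 8 in miR-706 and 12 in miR-710. The first 16 bases of miR-706, agagaaacccugucuc, read as DNA on both strands, occurred in 28 of 32851 promoter windows of RefSeq genes (0.0852%), those of miR-690, aaaggcuaggcucaca, in 1, and those of miR-710, ccaagucuuggggaga, in 0. A match is a match of letters only.

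The 4 genes did not form a cluster. Mir690 lay on chromosome 16 (chr16:28599935-28600043, minus strand), within the span of Fgf12 on the same strand. Mir706 lay on chromosome 6 (chr6:120034228-120034311, minus strand), within the span of Wnk1, which encodes a kinase that controls ion transport, again on the same strand. Mir709 lay on chromosome 8 (chr8:84086099-84086186), within the span of the transcription factor gene Rfx1. Mir710 lay on chromosome 8 as well (chr8:64514332-64514441, minus strand) and within the span of no other annotated gene. The table used gives gene spans only, so exon and intron were not assigned.

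Plate B itself behaved differently in stroma and epithelium, and all values of the 4 miRNAs have to be read beside its control assays. These are small nuclear, nucleolar and Y RNAs present in all nucleated cells. On plate A all 5 of them (U6, Y1, U87, snoRNA135 and snoRNA202) were detected in every library. On plate B, U87, snoRNA135 and snoRNA429 had mean Cts of 20.8 ± 0.93, 16.3 ± 0.77 and 16.6 ± 0.78 in stroma (SD, n = 4) and were undetected in all 9 epithelial libraries. snoRNA202 was at 13.7 ± 0.81 in stroma and 33.7 ± 1.05 in epithelium (n = 9) on plate B, against 13.9 ± 0.73 and 16.3 ± 0.85 on plate A. For these assays stroma was alike on both plates, and epithelium was not. U6 and Y1 were detected throughout on plate B. U6 had a plate B Ct of 12.4 ± 0.70 in stroma and 11.7 ± 0.70 in epithelium, and Y1 one of 24.4 ± 0.94 and 25.8 ± 1.00, against 21.4 ± 0.46 and 27.9 ± 0.59 for Y1 on plate A. The plant negative control ath-miR159a was undetected in every library on both plates. Of the 209 miRNA assays of plate B, 112 were undetected in all 9 epithelial libraries and 65 of these were detected in all 4 stromal libraries, against 74 and 9 on plate A. The labels name a human primer set for the pre-amplification of these mouse samples, whereas the study's methods name a mouse and a human one. How far the plate difference or the primers enter the stromal values of the 4 miRNAs was not tested.

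**Figure D1:**
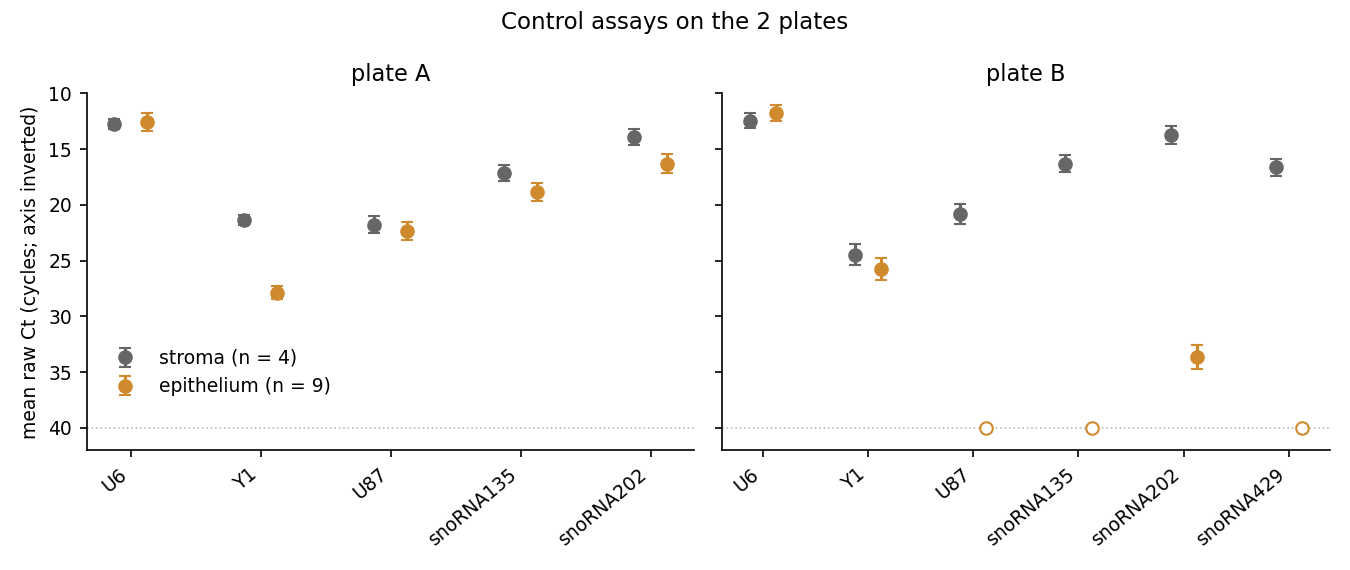
Mean raw Ct of the control assays on plate A (left) and plate B (right) in stroma (grey, n = 4) and epithelium (orange, n = 9), with SD bars and the axis inverted so that more RNA is higher; open circles are assays undetected in every library (Ct 40), and snoRNA429 was on plate B only. On plate B, U87, snoRNA135 and snoRNA429 were undetected in epithelium and snoRNA202 had a mean Ct of 33.7 there, while U6 and Y1 stayed close to stroma.

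miR-690 was detected in stroma and in no epithelial library. The Ct of mmu-miR-690 was 16.7, 16.5, 15.5 and 15.8 in stroma 1 to 4, against 40 in each of the 9 epithelial libraries and in the library labelled MaSC-4. The 4 stromal values lay close together, at 16.1 ± 0.56 (SD), and the groups were far apart. On the normalized scale stroma averaged 21.83 ± 0.27 and epithelium 1.53 ± 0.34, which is the value that cyclic loess gives to a Ct of 40 there. The difference of 20.30 is a lower bound for the assay signal on this scaling (15.27 with loess on plate B alone). It was the largest of the 159 plate B miRNAs and of all 459 miRNAs tested. Those tested had normalized values of 2 or more in 3 or more of the 13 libraries. The raw Ct shift of miR-690, at least 23.9 cycles, stood beside shifts of at least 23.7 for snoRNA135, 23.4 for snoRNA429 and 19.2 for U87 on the same plate. Each of these controls was undetected in the same 9 libraries. snoRNA135 was detected in all of these libraries on plate A, at 18.8 ± 0.83 in epithelium. On plate A stroma minus epithelium was only -1.71 cycles for snoRNA135 and -0.55 for U87. Here and below, a bound against a Ct of 40 on plate B therefore concerns the assay signal and not the amount of RNA. Among MaSC/basal, ML and LP cells miR-690 gave no measurement, and no order of the 3 populations can be read from it.

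miR-709 was detected in every library, at far lower Cts in stroma. The Ct of mmu-miR-709 was 15.1, 15.7, 14.9 and 15.1 in stroma, 26.1, 26.3 and 24.99 in MaSC/basal cells, 28.4, 30.5 and 28.7 in ML cells and 27.8, 25.8 and 24.1 in LP cells. No stromal value came near an epithelial one, the nearest being LP 3. The mean Ct was 15.2 ± 0.34 in stroma and 27.0 ± 2.03 in epithelium, a shift of -11.8 cycles. That was the largest drop among the 70 miRNAs of plate B that were detected in all 13 libraries, for which the median shift was -1.52 cycles (quartiles -4.63 and 0.22), while the control snoRNA202, also detected in every library on that plate, shifted by -19.9 cycles. Normalized values averaged 24.58 ± 0.44 in stroma and 13.74 ± 2.23 in epithelium, a difference of 10.83 or 1830-fold, and stood 45th of 159 on plate B, where most of the larger differences were lower bounds against undetected values. The stromal spread of 0.44 was small beside the epithelial one, which came from differences within the epithelium.

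miR-706 was also detected in every library, with a smaller distance between stroma and epithelium. The Ct of mmu-miR-706 was 23.4, 23.8, 22.7 and 23.0 in stroma, 30.5, 29.8 and 28.2 in MaSC/basal cells, 32.6, 31.9 and 31.5 in ML cells and 30.7, 30.4 and 28.2 in LP cells. The groups did not overlap in raw Ct, at 23.2 ± 0.45 in stroma and 30.4 ± 1.53 in epithelium. The shift of -7.22 cycles was exceeded by 8 of the 70 miRNAs detected throughout. Normalized values averaged 15.12 ± 0.31 in stroma and 10.87 ± 1.61 in epithelium, a difference of 4.24 or 18.9-fold, which was 84th of 159. This difference depended on the scaling. With cyclic loess run on plate B alone it was -0.33, and stroma (11.14 to 12.36) overlapped epithelium (10.34 to 14.01), whereas U6 of the same plate as the sole reference gave 7.91.

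miR-710 was the one miRNA of the 4 seen in epithelium and not in stroma, and its values lay at the limit of detection. It was undetected in all 4 stromal libraries, whereas the Ct of mmu-miR-710 was 39.2, 37.0 and 35.3 in MaSC/basal cells, 40, 39.9 and 40 in ML cells and 40, 38.01 and 37.5 in LP cells. It was thus detected in 3 of 3 MaSC/basal, 1 of 3 ML and 2 of 3 LP libraries, and was undetected in the library labelled MaSC-4. Normalized values averaged 0.26 ± 0.04 in stroma and 2.05 ± 1.67 in epithelium, a difference of -1.79 that is about as large as the epithelial SD. No Ct was below 35, so that the difference was 0 once every Ct above 35 was set to 35. Only 4 plate B miRNAs in all were seen in epithelium and in no stromal library.

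**Figure D2:**
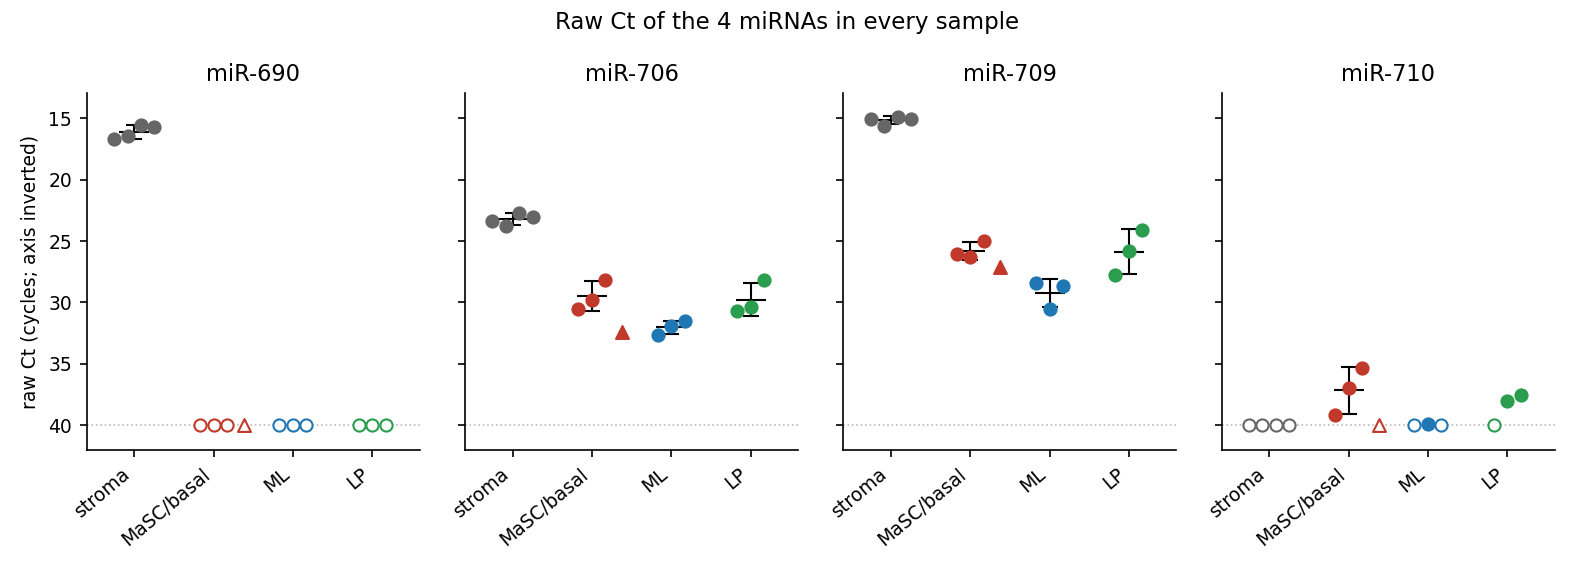
Raw Ct of miR-690, miR-706, miR-709 and miR-710 in each library of stroma (n = 4), MaSC/basal, ML and LP cells (n = 3 each), with the axis inverted; filled circles are detected, open circles undetected (Ct 40), triangles the library labelled MaSC-4, and bars mean ± SD where every library was detected. miR-690 lies at 15.5 to 16.7 in stroma and at 40 elsewhere, miR-706 and miR-709 are lowest in ML cells, and miR-710 stays at or beyond 35.3.

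Of the 4 miRNAs, 3 were higher in stroma without overlap and detected in all stromal libraries. The same held for 38.1% of the 459 miRNAs tested and for 97 of the 159 on plate B. The levels chose the members, so nothing is read from this count. A measure that a shift common to all plate B assays of a library leaves untouched is the gap between miR-706 and miR-709 in the same library. The Ct of miR-706 exceeded that of miR-709 by 8.30, 8.08, 7.81 and 7.94 cycles in stroma, against 3.18 to 4.45 in MaSC/basal, 1.43 to 4.18 in ML and 2.98 to 4.57 in LP cells. The gap averaged 8.04 ± 0.21 in stroma and 3.47 ± 1.00 in epithelium and was 5.31 in the library labelled MaSC-4. The gap says that the 2 assays moved by unequal amounts and does not say which of them did. The plate B controls had no common shift, with stroma minus epithelium at 0.69 cycles for U6, -1.31 for Y1 and -19.9 for snoRNA202. An unequal shift of this kind would enter the gap, and its part was not tested.

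**Figure D3:**
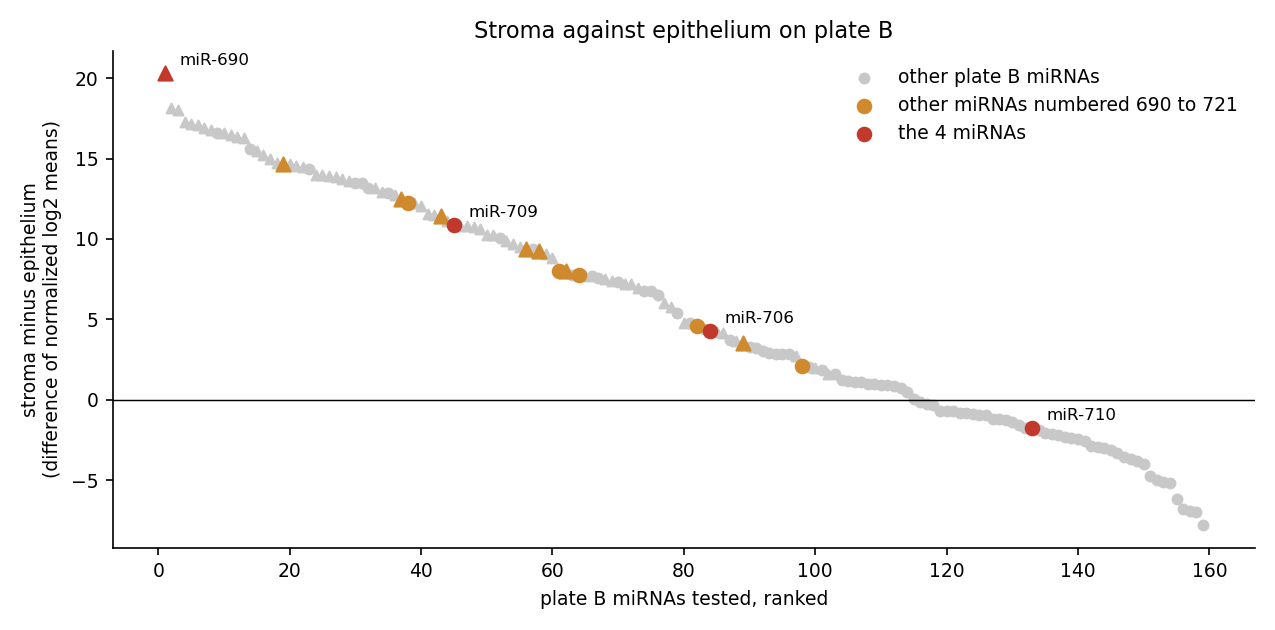
Difference between stroma and epithelium in mean normalized log2 value for the 159 plate B miRNAs tested, ranked from high to low. Red marks the 4 miRNAs and orange the other plate B miRNAs from miR-691 to miR-721. Triangles mark those undetected in all 9 epithelial libraries, for which the value is a lower bound for the assay signal only. miR-690 is at the top with 20.30, miR-709 and miR-706 follow with 10.83 and 4.24, and miR-710 lies below 0 with -1.79.

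Within the epithelium, miR-706 and miR-709 shared an order of levels. Both were lowest in ML cells. miR-709 averaged 11.24 ± 1.09 in ML and 15.24 ± 2.07 in LP cells, a difference of -3.99 or 15.9-fold, the lowest of the 159 plate B miRNAs and second lowest of all 459. miR-706 averaged 9.01 ± 0.37 in ML and 11.89 ± 1.49 in LP cells, a difference of -2.88 or 7.34-fold, the fourth lowest on plate B. Neither overlapped between ML and LP libraries, under any of 6 ways of scaling the Ct values. On the deposited scaling alone, a separation of ML below LP, with LP detected throughout, was seen for 17.9% of all miRNAs tested. The share under all 6 scalings was not computed, and again the members were selected on these levels.

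The difference between ML and LP cells held in each mouse pool but varied in size. For miR-706 it was -2.09, -2.15 and -4.39 in pools 1 to 3, and for miR-709 it was -1.07, -5.28 and -5.63. Pool 1 thus gave the smallest difference for both. Against MaSC/basal cells of the same pool, ML cells stood at -2.69, -2.76 and -2.70 for miR-706 on the deposited scaling, and the raw Ct differences were 2.08, 2.16 and 3.35. For miR-709 they stood at -2.87, -4.85 and -2.80. LP cells showed no common direction against MaSC/basal cells, with miR-709 at -1.81, 0.43 and 2.84 and miR-706 at -0.60, -0.61 and 1.69. The MaSC/basal means, 11.72 ± 0.40 for miR-706 and 14.75 ± 0.26 for miR-709, thus differed from the LP means by less than the SD of the LP libraries, and MaSC/basal minus luminal differences of 1.28 and 1.51 came with overlapping libraries. With U6 of the same plate as reference they were 2.28 and 2.62, with loess on plate B alone the one of miR-706 was 0.80, and without LP 1 that of miR-709 was 0.99. The plate B controls moved between ML and LP libraries too. The ML minus LP difference in Ct was -0.68, 1.03 and 3.71 for snoRNA202, 0.16, 1.77 and 0.25 for Y1 and 0.06, 0.30 and -1.30 for U6 in pools 1 to 3, against 1.88, 1.56 and 3.31 for miR-706 and 0.68, 4.69 and 4.59 for miR-709. Their part in the difference was not tested.

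**Figure D4:**
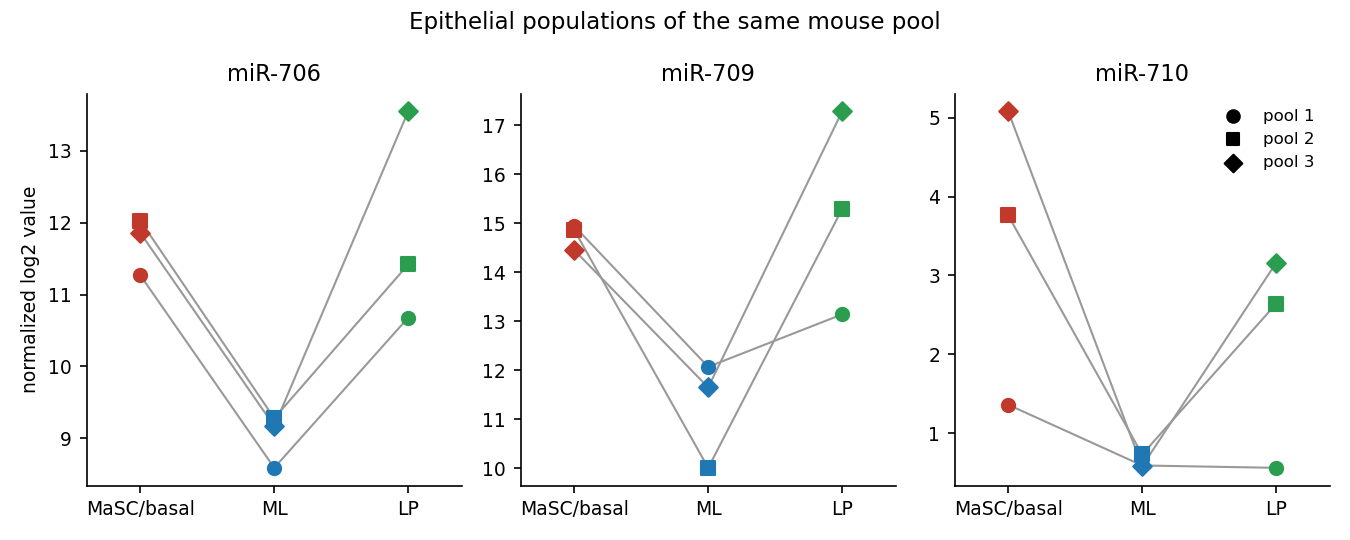
Normalized log2 values of miR-706, miR-709 and miR-710 in MaSC/basal, ML and LP cells, with lines joining libraries of 1 mouse pool (circle, square and diamond for pools 1, 2 and 3). miR-706 and miR-709 are lowest in ML cells in all 3 pools, and LP cells of pool 3 hold their highest epithelial values, 13.55 and 17.28.

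miR-710 followed a related order near its detection limit, with 3.40 ± 1.88 in MaSC/basal, 0.63 ± 0.09 in ML and 2.12 ± 1.38 in LP cells. Its ML minus LP difference was 0.02, -1.91 and -2.58 in pools 1 to 3, where pool 1 compares 2 undetected libraries. MaSC/basal cells were 2.02 above luminal cells, with libraries that overlapped. This difference was 1.18 without MaSC/basal 3, 3.04 without MaSC/basal 1 and 0 with Ct above 35 set to 35. Its ML minus LP difference of -1.49 was -0.97 without LP 3 and -2.27 without LP 1. With the library labelled MaSC-4 included, the MaSC/basal minus luminal difference was 1.32 for miR-710, 0.74 for miR-706 and 1.47 for miR-709. That library had normalized values of 0.59, 9.57 and 14.59 for the 3 miRNAs, so that its miR-706 was nearer to ML than to MaSC/basal cells. Its miR-709 lay among the MaSC/basal values and also within the LP range of 13.14 to 17.28.

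Since the plate B controls disagreed, the difference between stroma and epithelium was recomputed under each scaling. miR-690 kept a bound of 15.27 to 24.58 and miR-709 a difference of 10.11 to 12.47, both without overlap under all 6. miR-706 ranged from -0.33 to 7.91 and overlapped under 1 of the 6. miR-710 ranged from -4.07 to 0 and overlapped under 3 of the 6. With the library labelled MaSC-4 among the epithelium, the deposited scaling gave 20.32, 10.85, 4.42 and -1.56 for miR-690, miR-709, miR-706 and miR-710.

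**Figure D5:**
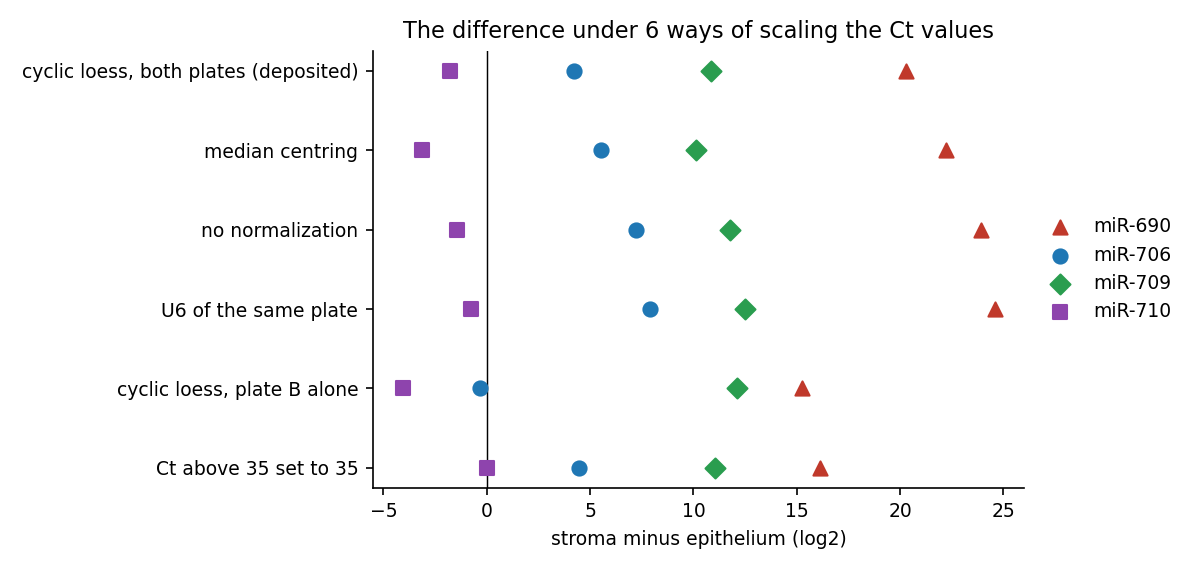
Stroma minus epithelium on the log2 scale for the 4 miRNAs under 6 ways of scaling the Ct values, the deposited one at the top. Values for miR-690 are lower bounds for the assay signal only. miR-690 and miR-709 stay above 10 throughout, miR-706 lies between -0.33 and 7.91, and miR-710 lies at or below 0.

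The other 25 miRNAs of plate B in the run from miR-690 to miR-721 were set beside the 4, as their neighbours in the nomenclature. Of these, 10 were undetected in all 14 libraries. A further 9 were detected in stroma alone (7 of them in all 4 libraries), 5 in stroma and epithelium, and miR-719 in a single MaSC/basal library (Ct 34.7). The 5 were miR-694, miR-696, miR-702, miR-715 and miR-720, named here after their values were seen, and miR-715 and miR-720 among them were detected in all 13 libraries, as were miR-706 and miR-709.

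In stroma against epithelium, 12 of the 25 reached the level for testing and all 12 were called higher by limma (Benjamini-Hochberg adjusted p under 0.05) and 0 lower, also at an unadjusted p under 0.05. Of all 459 miRNAs tested, 47.9% were called higher and 33.8% lower, and of the 159 on plate B 67.3% were called higher. The 7 that were detected in all stromal libraries and in no epithelial one had passed the filter through stroma and had to differ. Their undetected values have almost no spread, so that no p is given for them. miR-694 and miR-696 came near this case, detected in only 2 and 3 of 9 epithelial libraries, at 37.7 and 36.0 or later. The count of 12 thus follows largely from the filter and is not read as a result. On the deposited scaling the median difference of the 12 was 8.64, with 7 of them entering as bounds, against 0.62 for all miRNAs tested and 4.80 for plate B. The largest were miR-699, with Cts of 22.7 to 23.8 in stroma, and miR-700, with 25.6 to 26.0, both undetected in epithelium. Against the value given to a Ct of 40, the bound for miR-699 was 14.64 on the deposited scaling, 9.11 with loess on plate B alone and 9.09 with Ct above 35 set to 35. For miR-700 it was 12.46, 7.28 and 6.74. Next came miR-696, at 24.0 to 26.0 in stroma and detected in 3 of 9 epithelial libraries at 36.0 or later, which passed the filter mainly through stroma as well. Its difference was 12.25, 6.87 and 7.22 under the same 3 scalings, and no p is given for it. miR-715 resembled miR-706 in its dependence on scaling. It averaged 14.05 ± 0.60 in stroma and 11.97 in epithelium, a difference of 2.08 (SE 0.62, adjusted p = 0.00871 from limma), and with cyclic loess on plate B alone it was called lower (-2.37, adjusted p = 0.000849 from limma). miR-720, which is now regarded as a fragment of a threonine transfer RNA, had Cts of 14.3 to 15.2 in stroma and 22.02 to 24.4 in epithelium. It was 7.75 higher in stroma (SE 0.15, adjusted p = 6.97e-13 from limma). These p-values measure spread between libraries and not between mice, as all stromal libraries came from 1 mouse pool. With mouse pool as a random replicate block, the adjusted p from limma was 0.0427 for miR-715 and 6.72e-12 for miR-720. That block still cannot part pool from stroma.

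Of the 12, 7 were undetected in all 9 epithelial libraries, and miR-694 and miR-696 were detected in only 2 and 3 of them. These passed the filter wholly or mainly through stroma and could hardly be called within the epithelium. The counts of the 12 below thus follow largely from the filter and are not read as a result. Between MaSC/basal and luminal cells, limma called 0 of the 12 higher and 1 lower, with the same counts at an unadjusted p under 0.05, against 23.1% and 17.2% of all miRNAs tested and 18 and 16 of the 159 on plate B. The one was miR-715, with 10.58 ± 0.75 in MaSC/basal, 12.25 ± 0.65 in ML and 13.06 ± 1.97 in LP cells, and a difference of -2.08 (SE 0.72, adjusted p = 0.0407 from limma). It was no longer called once mouse pool entered the fit as a block (adjusted p = 0.172), with the library labelled MaSC-4 included (adjusted p = 0.0893), and on leaving out any 1 of 9 of the 13 libraries (adjusted p from 0.00843 to 0.145 over the 13, by limma). Between ML and LP cells limma called 0 of the 12 higher and 0 lower, against 10.9% and 11.1% of all miRNAs tested and 4 and 19 of the 159 on plate B, with 1 lower at an unadjusted p under 0.05. That was miR-702 (-3.46, SE 1.44, adjusted p = 0.125 from limma), for which the adjusted p was 0.0247 without LP 1. It was detected in 6 of 9 epithelial libraries, at 34.1 or later, so its values lie near the limit of detection. With Ct above 35 set to 35 its difference was -0.40 (adjusted p = 0.563 from limma). The median difference of the 12 was -0.15, against -0.11 for all miRNAs tested.

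For each of the 4, the miRNAs with the nearest values were found. Nearness was the root mean square (RMS) difference of normalized values. For miR-706, over the 9 epithelial libraries and after centring each miRNA on its mean, these were miR-801 (RMS 0.59), let-7g* (0.65) and miR-135a* (0.78), all on plate B, among 303 candidates detected throughout, 69 of them on plate B. For miR-709 they were miR-124 of plate A (0.83), miR-466d-3p (0.91) and miR-706 itself (0.93). The ML minus LP differences of these 5 other miRNAs were -2.32, -1.95, -1.51, -3.77 and -2.81, in the order given. As they were picked for likeness over the same ML and LP libraries, differences of the same direction follow from the choice. For miR-690, among 73 others undetected in epithelium and detected in all stromal libraries, 64 of which are on plate B, the nearest over the 13 libraries were miR-22 (1.198, stromal mean 19.68), rno-miR-664 (1.30, stromal mean 19.50) and miR-376b* (1.87, stromal mean 18.50), all on plate B. For miR-710, the pattern of detection had no close match. The nearest, miR-302b, miR-452 and miR-490 of plate A, each differed from it in 4 of 13 libraries.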

How the data were processed

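The 14 libraries were profiled on TaqMan rodent arrays, after stem-loop reverse transcription and 12 cycles of pre-amplification. The primers named for this step differ between the labels (human) and the methods (mouse and human). The deposited raw values are Ct values, on another scale than counts, and the deposited log2 values were made by the authors by taking the Ct from a constant, with cyclic loess between samples and U6 weighted 100. Rerunning the loess (span 0.7, 5 iterations) gave the deposited values to within 5.3e-14. The authors' comparison of MaSC/basal with luminal cells (fold changes and p-values) was not used.

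miRNAs reaching 2 in at least 3 of 13 libraries (459) were fitted with limma 3.58.1 in R 4.3.3, with 4 group means and calls at a Benjamini-Hochberg adjusted p under 0.05. Epithelium was the mean of the 3 epithelial means. The study's heat map shows 13 mouse samples, without MaSC-4. The members and lists were chosen with earlier results of these data known. Named miRNAs were the 4, up to 3 called list members each way per comparison, the controls and the 3 nearest miRNAs. Same-numbered epithelial libraries share a mouse pool by their labels, which pairs them, and their deviations correlated with a median r of 0.22 over 9 pairs (7 above 0.1), against -0.12 over 18 pairs of different pools. The methods call the samples of a population biological replicates, while the labels give 1 mouse pool for all of stroma, and the number of libraries limits the precision. Alternatives were other scalings, a Ct limit of 35, no filter, other sample sets, the pool block and leaving out each library. On simulated data the fit was checked against known changes.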

Additional observations from a re-analysis of the deposited data

Results flagged for a closer look

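In the library labelled MaSC-4, miR-696 had a normalized value of 4.58, far from MaSC/basal 1 to 3, which averaged 1.38 ± 0.28 (SD, n = 3). Over all miRNAs tested, the median distance of this library from the mean of MaSC/basal 1 to 3 was 0.98 on the log2 scale, against 0.31 to 0.45 for each of those from the mean of the others. The flag on miR-696 rested on the gap between 1 library and the nearest other, relative to the range of its population. Such a rule marks about 1 of 20 groups by chance.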

How the results depend on the processing

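For stroma minus epithelium, miR-690 gave 24.58 with U6 of the same plate as reference, 23.89 with no normalization, 22.21 with median centring, 15.27 with cyclic loess on plate B alone and 16.10 with Ct above 35 set to 35. In the first 4 of these settings, miR-706 gave 7.91, 7.22, 5.55 and the reversed -0.33. miR-709 gave 12.47 with U6 and 12.12 with loess on plate B alone. miR-710 gave -3.13 with median centring, -4.07 with loess on plate B alone and 0 with the Ct limit, which sets all its values equal. Leaving out 1 library gave 20.17 to 20.38 for miR-690, 4.04 to 4.52 for miR-706, 10.48 to 11.18 for miR-709 and -2.13 to -1.51 for miR-710, and for ML minus LP -3.48 to -2.04 for miR-706 and -5.04 to -2.97 for miR-709, in both cases without LP 1 and without LP 3. All other settings kept ML below LP, at -2.99 to -1.97 for miR-706 and -4.06 to -3.32 for miR-709.

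Of the list of 25, the count called in stroma was 12 with all 14 libraries, on leaving out any library and with mouse pool as a random replicate block, 10 (9 higher, 1 lower) with loess on plate B alone, and 22 with no filter, where the 10 added calls were miRNAs undetected in all libraries that loess had set apart by 0.14. With the Ct limit it was 12, of which 10 were higher and 2 lower, miR-697 (-1.91) and miR-719 (-2.04). The lower call for miR-697 went against its raw Cts, which were 34.6 to 36.5 in stroma and 40 in every epithelial library. miR-719 was detected in 1 epithelial library alone. For MaSC/basal minus luminal the count of 1 became 0 with all 14 libraries, U6, no filter, only the groups compared or mouse pool as a fixed replicate block, and 2 with median centring (miR-720 added, -0.58). It was 0 to 1 on leaving out a library, and 0 without MaSC/basal 1, 2 or 3, ML 1 or 2, LP 2, or stroma 2, 3 or 4. For ML minus LP the count of 0 became 1 with loess on plate B alone (miR-720, 0.78), was 0 with the block, and was 0 to 1 on leaving out a library, with miR-702 called without LP 1. The cause of these changes was not tested.

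Each population has 3 or 4 libraries, stroma is 1 mouse pool, and an undetected value gives only a bound. On plate B in epithelium that bound concerns the assay signal and not the amount of RNA.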
